A study of Solanum lycopersicum x Solanum pennellii and Solanum lycopersicum and Solanum pennellii with 305 samples.

Results

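The PIN-FORMED (PIN) proteins of tomato are described here by their transcripts, which were measured by RNA sequencing of root tips. The 9 genes described, SlPIN2 to SlPIN10, were taken by their Solyc identifiers, and all 9 were found among the 29633 genes of the count table. The table was read for 305 libraries of 77 genotypes. The 75 introgression lines (ILs) were bred to carry a segment of Solanum pennellii LA0716 in the genome of Solanum lycopersicum cultivar M82, and the 2 parents were S. pennellii itself (3 libraries) and M82 (4 libraries). Of the lines, 73 had 4 libraries and 2 had 3. All seedlings were untreated, and each library pooled the root tips of several seedlings of 1 sowing. The tips were 1 cm long and were cut 3 to 4 days after germination. Age is given only as this range for every library, so an effect of age was not tested here. A line is a limited model of a single gene, because every gene of the segment is exchanged along with it.

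PIN proteins are transmembrane carriers that move the hormone auxin out of the cell or into internal compartments. Long PINs sit on 1 side of the plasma membrane and thereby set the direction in which auxin flows from cell to cell, whereas short PINs sit largely on the endoplasmic reticulum and act on the auxin pool inside the cell. In the root tip of Arabidopsis, PIN2 carries auxin back up through the epidermis and cortex and is needed for bending towards gravity, PIN3, PIN4 and PIN7 redistribute it in the columella and stele, and PIN5, PIN6 and PIN8 act wholly or in part inside the cell. The tomato genes carry matching numbers, but a number alone does not make a tomato gene the counterpart of the Arabidopsis one, and SlPIN9 and SlPIN10 have no counterpart of that number.

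Levels are given as counts per 1000000 reads (CPM) after scaling by the trimmed mean of M values (TMM), and fold changes as log2 with their standard error (SE). A gene was called at an adjusted p of 0.01 or less by edgeR's quasi-likelihood test, adjusted by the Benjamini-Hochberg method over all 19591 genes tested in that comparison. Libraries held between 683199 and 11338423 counted reads, with a median of 4303828. The root genes SHR, SCR and FER had reads in 305 of 305 libraries, and IRT1 in 187. The summed level of 2 genes of the small subunit of Rubisco, taken as a sign of green tissue, ran from 10.9 to 37.0 CPM in S. pennellii and from 10.303 to 13.1 CPM in M82, within 1.13 to 41.4 CPM over all libraries. In pooled tissue, fewer cells of a type and less transcript per cell cannot be told apart.

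The members read in every library were SlPIN2 (133043 reads in all), SlPIN3 (17896), SlPIN4 (35299), SlPIN7 (21319) and SlPIN9 (82705). The other members were sparse. SlPIN10 had 1111 reads in all and at least 1 read in 273 libraries, SlPIN5 had 746 reads and was seen in 238 libraries, SlPIN8 had 450 reads in 227 libraries and SlPIN6 had 354 reads in 202 libraries. SlPIN6 (Solyc06g059730) and SlPIN8 (Solyc02g087660) did not pass the filter on low counts, so 7 of 9 members were tested. Gene lengths were not used here, and levels of different members are therefore not compared.

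The comparison of the parents asks which PIN genes differ between the wild species and the cultivar. SlPIN5 and SlPIN7 were called higher in S. pennellii, and no tested PIN gene was called lower. That makes 2 of 7 tested members called, against 35.6% of all genes tested, and both were higher. SlPIN5 passed the filter on low counts only through its S. pennellii libraries, since no other library exceeded 2.02 CPM. The count of called members is therefore not independent of the filter. SlPIN5 (Solyc01g068410), whose Arabidopsis namesake is a short PIN, had 4.71, 4.73 and 4.48 CPM in the S. pennellii libraries, against 0.320, 0.397, 0.548 and 0 CPM in M82. The values rest on 20 to 27 reads per S. pennellii library, and on 5 reads in the 4 M82 libraries together. All S. pennellii libraries lay above all M82 libraries. The fitted log2 fold change was 3.82 (SE 0.56) with an adjusted p of 4.7e-10 by edgeR's quasi-likelihood test.

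SlPIN7 (Solyc10g080880) had 20.7, 20.7 and 17.9 CPM in S. pennellii, against 12.5, 16.3, 9.86 and 11.6 CPM in M82. The groups did not overlap, and S. pennellii was higher in 3 of 3 pairs of the same replicate number. SlPIN7 was thus 1.58 times as high in S. pennellii, with a log2 fold change of 0.64 (SE 0.18) and an adjusted p of 0.0021 by edgeR's quasi-likelihood test. The call was lost with replicate 3 left out of every genotype but M82 (log2 fold change 0.60, adjusted p of 0.021 by edgeR), which left 1 PIN gene called, and narrowly with DESeq2 on the parents alone (adjusted p of 0.0102). Libraries without overlap were seen in these 2 of the 7 tested members, against 48.9% of all genes tested. SlPIN5 was among the 7 only through its S. pennellii libraries.

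The other members had log2 fold changes that missed the threshold. SlPIN9 (Solyc10g078370) averaged 43.9 ± 7.73 CPM in S. pennellii and 55.5 ± 7.43 CPM in M82 (SD, n = 3 and 4), a log2 fold change of -0.33 with an adjusted p of 0.049 by edgeR. SlPIN3 (Solyc04g007690) averaged 7.83 ± 0.167 CPM in S. pennellii and 11.22 ± 3.398 CPM in M82, and SlPIN4 (Solyc05g008060) averaged 18.0 ± 2.41 CPM in S. pennellii and 23.1 ± 4.50 CPM in M82. Their log2 fold changes were -0.54 (SE 0.27) and -0.35 (SE 0.18), with adjusted p of 0.088 and 0.10 by edgeR. SlPIN2 (Solyc07g006900), whose Arabidopsis namesake is the carrier of gravitropic bending, averaged 90.4 ± 11.9 CPM in S. pennellii and 84.7 ± 11.5 CPM in M82. Its log2 fold change was 0.10 (SE 0.14). For SlPIN10 (Solyc04g056620) there were 5 reads in S. pennellii and 11 in M82, and for SlPIN6 and SlPIN8, which were not tested, 3 and 5 reads in S. pennellii and 2 and 6 in M82.

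**Figure D1:**
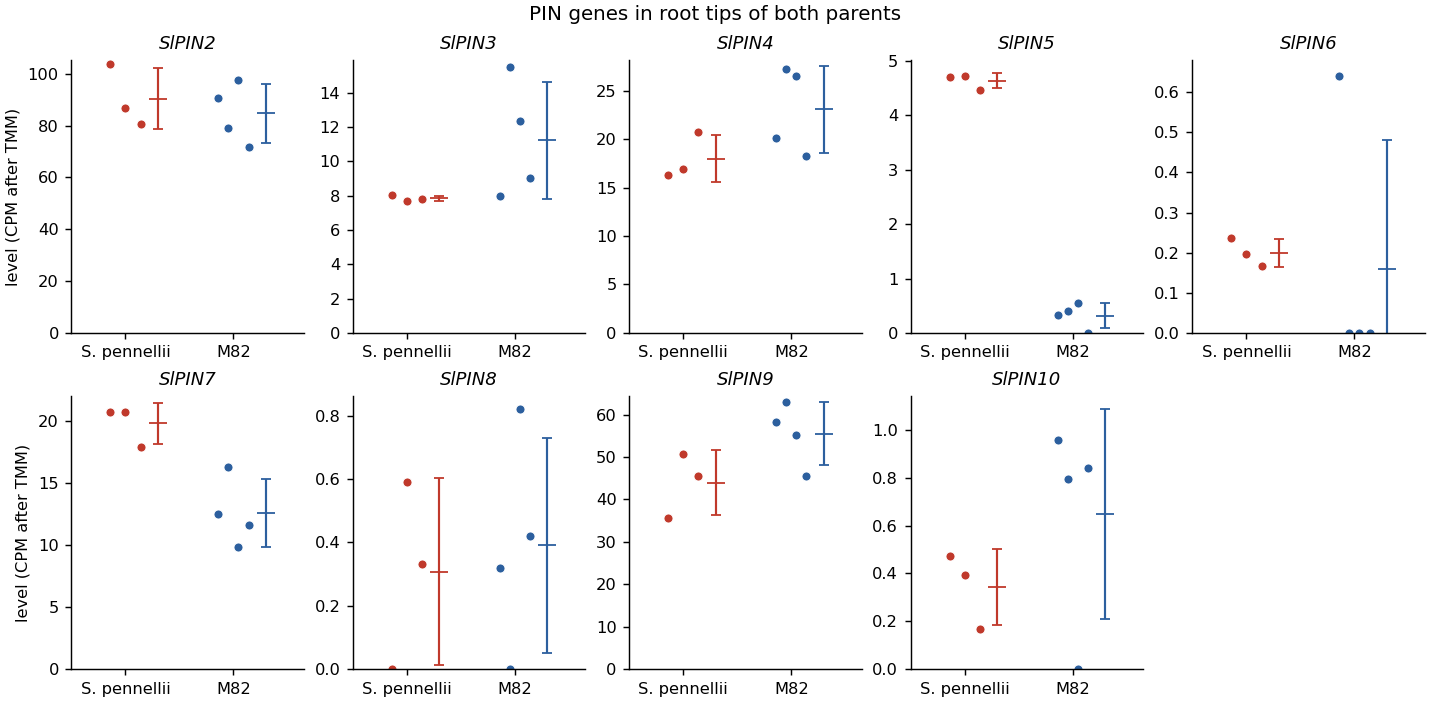
Level of each PIN gene in CPM after TMM (linear axes from 0, a scale for each panel) in the libraries of S. pennellii (red, 3) and M82 (blue, 4); points are libraries, the bar beside them the mean and 1 SD. SlPIN5 and SlPIN7 are separated between the parents and passed the test, and the other panels overlap. SlPIN5 entered the test only through its S. pennellii libraries.

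The lines ask whether a difference between the parents follows the S. pennellii copy of the gene. A line was taken to hold the S. pennellii copy of a member where the identifier of the member lay between the first and last gene that the deposited table labels cis for that line. The labelled genes give a least span, so a line placed just outside it may still hold the copy. By this rule 13 tested combinations of member and line held the S. pennellii copy, out of 41 tested combinations in which the introgression was on the member's own chromosome. In those 41 combinations, 2 were called against M82, against 6.00% of all genes on the chromosome of the introgression. That count does not exceed the share of all genes. Both calls were SlPIN7, both were in lines with its S. pennellii copy, and both were higher.

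These lines were IL10-2 and IL10-2-2. The labelled span of IL10-2-2, from Solyc10g079460 to Solyc10g081850, lies inside that of IL10-2, from Solyc10g076690 to Solyc10g087030. The 2 calls thus share a segment and the same M82 libraries and are not independent. SlPIN7 had 14.7, 26.8, 26.0 and 20.025 CPM in IL10-2, and 20.2, 25.04, 21.3 and 19.4 CPM in IL10-2-2, against the 9.86 to 16.3 CPM of M82. One library of IL10-2, replicate 1, fell inside the range of M82, while all of IL10-2-2 lay above it. Each line was higher in 4 of 4 pairs of the same replicate number. The means were 21.9 ± 5.70 CPM in IL10-2 and 21.5 ± 2.49 CPM in IL10-2-2, against 12.5 ± 2.72 CPM in M82 (SD, n = 4 each). The log2 fold change was 0.80 (SE 0.17) in IL10-2 with an adjusted p of 0.0012, and 0.76 (SE 0.17) in IL10-2-2 with an adjusted p of 0.0051, both by edgeR's quasi-likelihood test. In those comparisons 7.14% and 2.80% of the tested genes of chromosome 10 were called. Both calls against M82 depended on single replicates. IL10-2 missed the threshold without M82 replicate 3 (adjusted p of 0.022 by edgeR) or 4 (0.014) and without replicate 3 of the lines (0.054), and IL10-2-2 missed it without M82 replicate 1 (0.020), 3 (0.062) or 4 (0.062) and without replicate 1 (0.018), 3 (0.029) or 4 (0.015) of the lines. Fitted with M82 alone, neither line was called, with adjusted p of 0.098 in IL10-2 and 0.032 in IL10-2-2 by edgeR and of 0.054 and 0.025 by DESeq2. The summed green markers ran from 4.66 to 14.2 CPM in IL10-2, from 1.47 to 6.95 CPM in IL10-2-2 and from 10.303 to 13.1 CPM in M82.

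By the same rule, the other lines of chromosome 10 kept the M82 copy of SlPIN7. SlPIN7 averaged 14.9 CPM in IL10-1, 14.4 CPM in IL10-1-1 and 15.8 CPM in IL10-3, against 12.5 CPM in M82, and none was called. The level of M82 was on the low side for this gene. Over the 70 lines with the introgression on another chromosome, the mean of SlPIN7 ran from 10.9 CPM in IL3-2 to 19.5 CPM in IL11-4, with a median of 14.4 CPM, and M82 ranked 7th lowest of the 77 genotypes. The lines with the S. pennellii copy were therefore also set against lines rather than M82. Against the 70 lines on other chromosomes, SlPIN7 rose by 0.58 on the log2 scale (SE 0.080, adjusted p of 3.0e-09 by edgeR's quasi-likelihood test, 1.37% of genes called). This call held in each of the 4 fits that left out 1 replicate number of the lines, with adjusted p up to 4.7e-05. Against the 3 lines of chromosome 10 without the copy, a comparison chosen after the values were seen, it rose by 0.53 (SE 0.11, adjusted p of 0.00023 by edgeR, 0.898% of genes called). Both comparisons take their SE and p from the spread of libraries within genotypes, which leaves out the spread between lines. They do not measure how unusual 2 lines are among lines.

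The lines with the copy were last set against the wild parent. IL10-2 and IL10-2-2 together differed from S. pennellii by 0.15 on the log2 scale (SE 0.15), with an adjusted p of 0.45 by edgeR, where 40.3% of genes were called. This comparison was also chosen after the values were seen, and a p that misses the threshold does not show that the levels were equal.

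SlPIN9 lies on the same chromosome and was not called in any of its lines. IL10-1 and IL10-2 held its S. pennellii copy, with 49.2, 61.6, 58.4 and 64.7 CPM in IL10-1 and 47.0, 65.2, 47.7 and 53.9 CPM in IL10-2, against 58.3, 63.0, 55.3 and 45.4 CPM in M82. All these ranges overlapped. Against the lines on other chromosomes the log2 fold change was -0.04 (SE 0.067), with an adjusted p of 0.95 by edgeR and 1.43% of genes called. IL10-2-2, with the M82 copy of SlPIN9, had the highest mean of this gene among all genotypes, 69.3 ± 13.2 CPM, and S. pennellii had the lowest.

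**Figure D2:**
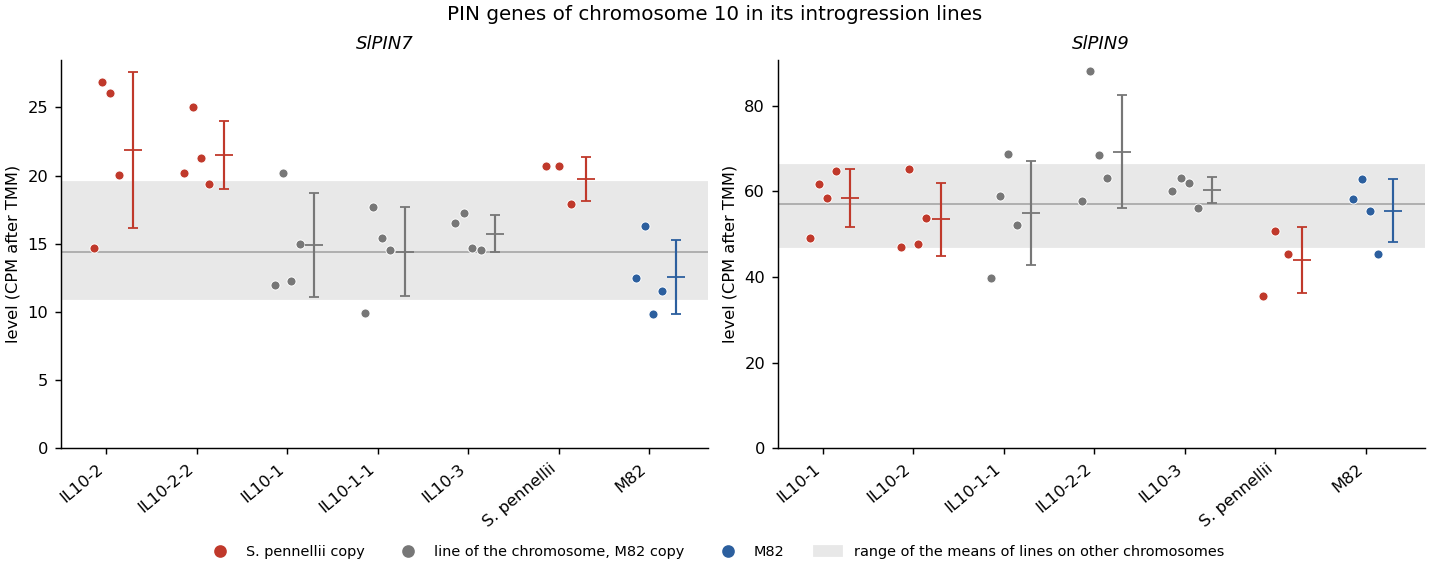
Levels of SlPIN7 and SlPIN9 in CPM after TMM (linear axes from 0) in the libraries of the 5 lines of chromosome 10, S. pennellii and M82; red marks genotypes with the S. pennellii copy of that gene, grey lines with the M82 copy, blue M82, bars the mean and 1 SD. The grey band spans the means of the 70 lines on other chromosomes, with a line at their median: the red means of SlPIN7 lie above that band and those of SlPIN9 in the lines lie within it.

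Chromosome 4 holds SlPIN3 near its beginning and SlPIN10 further along. IL4-1 held the S. pennellii copy of SlPIN3. SlPIN3 had 12.34, 21.6, 21.5 and 18.7 CPM in IL4-1, against 8.00, 15.5, 12.32 and 9.04 CPM in M82. IL4-1 was higher in 4 of 4 pairs of the same replicate number, with 1 of its libraries inside the range of M82. The log2 fold change against M82 was 0.72 (SE 0.23), with an adjusted p of 0.15 by edgeR's quasi-likelihood test. Against the 70 lines on other chromosomes it was 0.59 (SE 0.15), with an adjusted p of 0.011 by edgeR that just missed the threshold (1.11% of genes called). It passed with the replicate number as a block (0.58, adjusted p of 0.0063 by edgeR), with DESeq2 size factors (0.60, adjusted p of 0.0081) and without replicate 1 of the lines (0.68, adjusted p of 0.0017), but not without replicate 2 (adjusted p of 0.12 by edgeR), 3 (0.21) or 4 (0.11) of the lines. When all 5 lines of chromosome 4 were taken in place of IL4-1, the difference was -0.24 with an adjusted p of 0.0081 by edgeR. By the rule used here, 4 of these lines had the M82 copy.

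The lines of chromosome 4 with the M82 copy of SlPIN3 by the rule had lower means than IL4-1, and none of them was called against M82. The span of IL4-2 began at Solyc04g008290, not far past SlPIN3 (Solyc04g007690), which had no label in IL4-2. The copy of SlPIN3 in IL4-2 is therefore not certain. SlPIN3 averaged 10.8 CPM in IL4-2, 10.7 CPM in IL4-3, 9.16 CPM in IL4-3-2 and 6.77 CPM in IL4-4, against 11.22 CPM in M82. IL4-4 had 7.04, 4.64, 9.19 and 6.203 CPM, the lowest mean of all genotypes, and its log2 fold change of -0.76 against M82 had an adjusted p of 0.015 by edgeR. It passed in 2 of the 8 fits with 1 replicate left out, over which the log2 fold change ran from -0.94 to -0.54 and the adjusted p from 0.0061 to 0.14 by edgeR. IL4-4 had 3917 called genes, more than any other line. The summed root markers ran from 264 to 368 CPM in IL4-4 and from 230 to 253 CPM in M82, without overlap, and the green markers from 10.8 to 29.6 CPM in IL4-4 and from 10.303 to 13.1 CPM in M82. Their part in the levels of SlPIN3 and SlPIN7 in IL4-4 was not tested. Set against these 4 lines, after the values were seen, SlPIN3 in IL4-1 was 1.03 higher on the log2 scale (SE 0.17, adjusted p of 1.0e-06 by edgeR, 2.23% of genes called). S. pennellii itself did not have the high level of IL4-1. With 8.01, 7.68 and 7.79 CPM in S. pennellii, IL4-1 was 1.26 higher than S. pennellii on the log2 scale (SE 0.25, adjusted p of 7.8e-06 by edgeR, 33.6% of genes called).

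SlPIN10 was low in the lines that held its S. pennellii copy. IL4-2, IL4-3 and IL4-3-2 had 3, 3 and 2 reads, which makes 8 reads in 12 libraries or 0.0877 CPM. The 278 libraries of the 70 lines on other chromosomes had 1067 reads or 0.843 CPM. The ratio was 0.104, with an exact 95% interval of 0.0448 to 0.206 that covers counting error only. The fitted log2 fold change was -2.70 (SE 0.37) with an adjusted p of 2.5e-10 by edgeR, where 17.1% of genes were called. It was called in each fit that left out replicate 1, 2 or 3 of the lines, with adjusted p up to 1.8e-07 by edgeR. Without replicate 4 it could not be tested, because a line of the reference, IL9-3-1, then had no read. These p, too, leave out the spread between lines.

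M82 could not show this difference clearly, since its 4 libraries held 11 reads of SlPIN10. The log2 fold changes against M82 were -1.90 in IL4-2, -2.67 in IL4-3 and -3.05 in IL4-3-2, with adjusted p of 0.92, 0.046 and 0.029 by edgeR. IL4-4, where the M82 copy was kept by the rule used here, had 2 reads in 4 libraries, while IL4-1 had 18. Set against IL4-1 and IL4-4 together, the lines with the S. pennellii copy had a log2 fold change of -1.74 (SE 0.87, adjusted p of 0.14 by edgeR, 7.85% of genes called). A low level of SlPIN10 was thus seen in 4 of the 5 lines of chromosome 4 and was not limited to those that held the S. pennellii copy by the rule. Nor was it limited to chromosome 4, since the means of the 70 other lines ran from 0.166 CPM in IL5-3, with 3 reads, to 2.402 CPM in IL10-2, with a median of 0.782 CPM, and IL9-3-1 also had 3 reads and IL3-5 and IL12-1 had 4 each. S. pennellii had 5 reads, in 3 of 3 libraries.

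**Figure D3:**
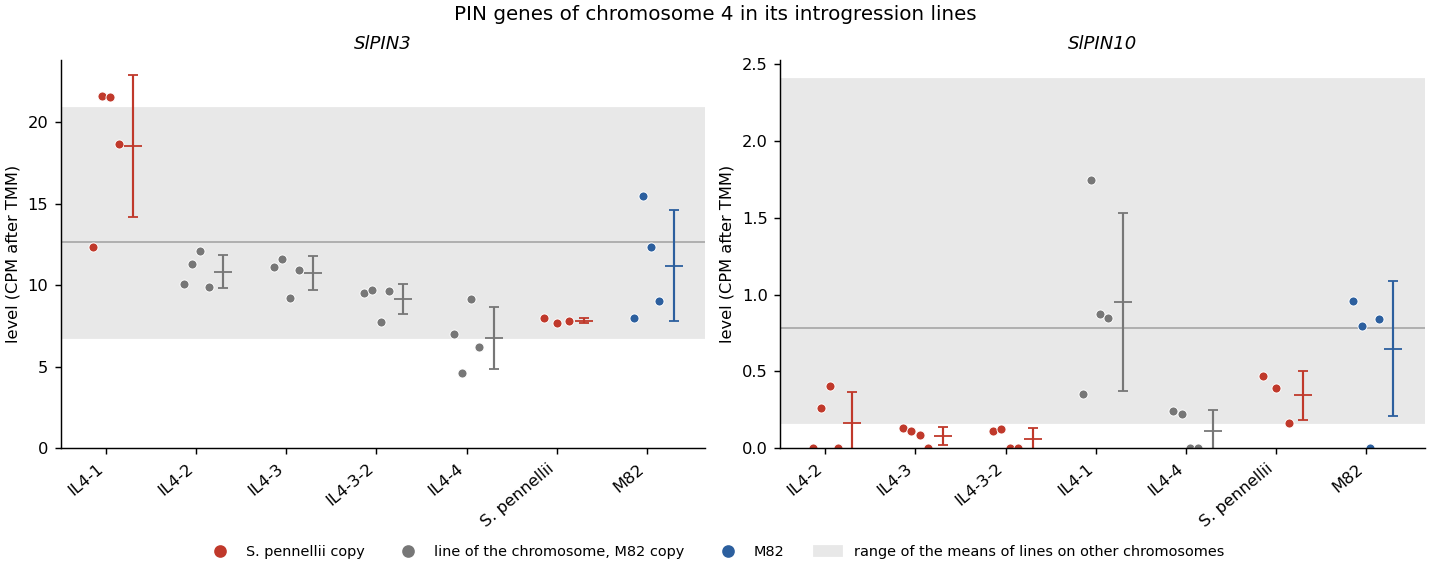
Levels of SlPIN3 and SlPIN10 in CPM after TMM (linear axes from 0) in the libraries of the 5 lines of chromosome 4, S. pennellii and M82; colours, bars and the grey band as for chromosome 10. SlPIN3 is above the other lines of the chromosome in IL4-1 and not in S. pennellii, and SlPIN10 is near 0 in IL4-2, IL4-3, IL4-3-2 and IL4-4.

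The S. pennellii copy of SlPIN2, on chromosome 7, was held by 5 lines. The mean was 91.1 ± 14.6 CPM in IL7-4, 98.0 ± 18.9 CPM in IL7-4-1, 79.9 ± 13.6 CPM in IL7-5, 79.6 ± 2.84 CPM in IL7-5-5 and 73.5 ± 8.06 CPM in IL7-5-P75, against 84.7 ± 11.5 CPM in M82. None was called against M82, and all overlapped it. Against the lines on other chromosomes the 5 lines were at -0.14 on the log2 scale (SE 0.045), with an adjusted p of 0.023 by edgeR, where 6.72% of genes were called. For IL7-5-P5 no gene was labelled cis, so its copy of SlPIN2 is not known, and its mean was 101 CPM.

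By the rule used here, no line held the S. pennellii copy of SlPIN4 or SlPIN5. The span of IL5-1 ended at Solyc05g007940, short of SlPIN4 (Solyc05g008060), which had no label in IL5-1. The copy of SlPIN4 in IL5-1 is therefore not certain. SlPIN4, on chromosome 5, averaged between 21.8 CPM in IL5-3 and 26.4 CPM in IL5-2, against 23.1 CPM in M82. SlPIN5, on chromosome 1, averaged between 0.231 CPM in IL1-1-3 and 0.420 CPM in IL1-3, against 0.316 CPM in M82, and no line of chromosome 1 came near the 4.64 CPM of S. pennellii. Whether the high level of SlPIN5 goes with the S. pennellii copy was therefore not tested. IL6-2, with the S. pennellii copy of SlPIN6, had no read in 4 libraries, which allows up to 0.295 CPM, and the 71 lines on other chromosomes had 0.256 CPM, so that a difference was not detectable at this depth. IL2-5, with the S. pennellii copy of SlPIN8, had 4 reads or 0.159 CPM, against 0.322 CPM in the 67 lines on other chromosomes, a ratio of 0.496 with an exact 95% interval of 0.134 to 1.28.

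In lines with the introgression on another chromosome, by the name of the line, the PIN gene itself was taken to be the M82 copy. Of 484 such combinations 1 was called, against 1.07% of all genes on chromosomes other than that of the introgression. With the mean of the lines on other chromosomes as the reference in place of M82, 17 were called, against 2.90% of all genes, and are described further on. The 1 call against M82 was SlPIN2 in IL12-3. SlPIN2 had 51.6, 49.0, 62.7 and 66.5 CPM in IL12-3, against 90.6, 79.1, 97.5 and 71.7 CPM in M82. All 4 libraries of IL12-3 lay below all 4 of M82, at 0.678 times the mean, and IL12-3 had the lowest mean of all genotypes. The log2 fold change of -0.55 (SE 0.14) had an adjusted p of 0.0011 by edgeR's quasi-likelihood test. The call was lost without M82 replicate 3 (-0.46, adjusted p of 0.013 by edgeR) and with IL12-3 and M82 fitted alone by edgeR's quasi-likelihood test (adjusted p of 0.021), while DESeq2 on the same libraries kept it (-0.55, adjusted p of 0.0083).

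With the replicate number as a block, 4 of the 484 combinations were called, against 1.36% of all genes. Beside SlPIN2 in IL12-3 these were SlPIN3 in IL8-3 and SlPIN7 in IL11-4 and IL4-4, all 3 higher. SlPIN7 had 19.3, 22.1, 19.5 and 17.3 CPM in IL11-4, against 12.5, 16.3, 9.86 and 11.6 CPM in M82, with no overlap. Its log2 fold change in IL11-4 was 0.62 with an adjusted p of 0.024 by edgeR without the block, and 0.63 with an adjusted p of 0.0055 with it. In IL4-4 it was 0.50 with an adjusted p of 0.020 without the block, and 0.52 with an adjusted p of 0.0055 with it, both by edgeR. The count without a block was 0 without M82 replicate 3, 3 without M82 replicate 2 or without replicate 1 or 2 of the lines, and 2 without replicate 3 or 4 of the lines.

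IL12-3 was 1 of 3 lines with more than 1000 called genes, and 14.4% of its genes on other chromosomes were called. SlPIN4 averaged 18.5 ± 2.81 CPM in IL12-3 and 23.1 ± 4.50 CPM in M82, a log2 fold change of -0.31 with an adjusted p of 0.17 by edgeR. Its libraries held 2299651 to 4069655 reads, against 3078847 to 4835467 in M82. The summed root markers ran from 239 to 346 CPM in IL12-3 and from 230 to 253 CPM in M82, and the green markers from 10.11 to 23.7 CPM in IL12-3 and from 10.303 to 13.1 CPM in M82. Their part in the lower level of SlPIN2 was not tested.

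Combinations short of the threshold leaned one way. At an unadjusted p under 0.05, 48 of the 484 combinations were higher than M82 and 6 were lower, against 5.13% higher and 4.83% lower over all genes. Higher values were most frequent for SlPIN7 (14 of 70 lines) and SlPIN2 (12 of 65), and there was none for SlPIN9. All these comparisons share the same 4 M82 libraries, and the median of the log2 fold change over lines was 0.38 for SlPIN5, 0.24 for SlPIN10, 0.19 for SlPIN7, 0.17 for SlPIN2, 0.16 for SlPIN3, 0.12 for SlPIN4 and 0.04 for SlPIN9. Libraries did not overlap M82 in 18 of the 484 combinations, against 6.301% over all genes.

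The reference changed which combinations were called. Against the mean of the lines on other chromosomes, tested with a Wald version of edgeR's quasi-likelihood test, the 17 called combinations were 6 higher and 11 lower. SlPIN2 fell in 5 lines, IL3-5, IL4-3, IL4-3-2, IL9-3-1 and IL12-3, and SlPIN4 fell in 5, IL2-5, IL4-3, IL4-3-2, IL4-4 and IL12-3. SlPIN5 rose in IL2-5, IL4-3 and IL4-3-2, with log2 fold changes of 1.44, 1.72 and 1.58. The labelled spans of IL4-3 and IL4-3-2 cover nearly the same stretch of chromosome 4, so these lines are not separate cases. SlPIN10 rose in IL9-1-3 and IL10-2, and SlPIN3 rose in IL8-3 and fell in IL7-2. None of the 17 was SlPIN7 or SlPIN9. With the introgression on the member's own chromosome 4 combinations were called against this reference, against 10.23% of all genes. They were SlPIN7 in IL10-2 and IL10-2-2, both higher, and SlPIN3 in IL4-4 and SlPIN10 in IL4-3, both lower.

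Each member that passed the filter was also tested for any difference of the 75 lines from M82, all lines at once. The level of the M82 libraries enters this test, which is called among lines below. SlPIN2, SlPIN3, SlPIN4, SlPIN5, SlPIN7 and SlPIN10 were called, 6 of 7, against 70.4% of all genes, and the adjusted p of SlPIN9 was 0.059 by edgeR's quasi-likelihood test. With the replicate number as a block SlPIN9 was called too, with an adjusted p of 0.0038 by edgeR. Genotype means of the lines on other chromosomes spanned 3.08-fold for SlPIN3, from 6.78 CPM in IL7-2 to 20.9 CPM in IL8-3. They spanned 2.08-fold for SlPIN2, from 57.4 CPM in IL12-3 to 119 CPM in IL9-1-2. The span was 1.79-fold for SlPIN7, 1.76-fold for SlPIN4 (from 17.3 CPM in IL2-5 to 30.5 CPM in IL8-1-5) and 1.41-fold for SlPIN9, from 46.9 CPM in IL3-2 to 66.2 CPM in IL11-4. With genotypes ordered by mean, 76 pairs of neighbours were compared. Their means with 1 SD were apart in 1 pair for SlPIN3, in 1 for SlPIN5 and in none for the other members. With so many genotypes in the order, neighbours overlap almost whatever the differences, so this does not show a continuous order.

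The widest shift of SlPIN3 against M82 in a line with its M82 copy was in IL8-3. Against the lines on other chromosomes, IL7-2 (-0.92) and IL4-4 (-0.90) were further off on the log2 scale than IL8-3 (0.74). SlPIN3 had 18.9, 19.9, 25.9 and 18.9 CPM in IL8-3, against 8.00, 15.5, 12.32 and 9.04 CPM in M82. All of IL8-3 lay above M82, yet the log2 fold change of 0.86 (SE 0.22) had an adjusted p of 0.022 by edgeR. With the replicate number as a block it was 0.88 with an adjusted p of 0.0064 by edgeR, and with 1 replicate left out the adjusted p ran from 0.0067 to 0.24. The green markers ran from 1.502 to 6.63 CPM in IL8-3, all below the 10.303 to 13.1 CPM of M82, and the root markers from 241 to 281 CPM in IL8-3 and from 230 to 253 CPM in M82. Their part in the level of SlPIN3 was not tested. SlPIN5 averaged 1.38 ± 0.862 CPM in IL4-3, 1.29 ± 0.497 CPM in IL4-3-2 and 1.14 ± 0.157 CPM in IL2-5, against 0.316 ± 0.231 CPM in M82. These 3 lines had the highest SlPIN5 after S. pennellii, with 52, 45 and 29 reads, and their adjusted p were 0.025, 0.052 and 0.062 by edgeR. The libraries of IL4-3 and IL4-3-2, which share most of their span, were deep. They held 7383859 to 11338423 and 7708731 to 9678817 reads. With 1 replicate left out SlPIN5 passed in IL4-3 in 1 of 8 fits, with adjusted p from 0.0064 to 0.17 by edgeR, and edgeR's exact test and DESeq2 gave 0.11 and 0.13. SlPIN10 was highest in IL10-2, where 0.666, 6.90, 0.274 and 1.77 CPM show that 1 library, with 37 reads, made most of the mean of 2.402 CPM. The log2 fold change of SlPIN10 in IL10-2 was 2.01 with an adjusted p of 0.020 by edgeR, and without replicate 2 it was 0.65 with an adjusted p of 0.70. It passed in 2 of the 8 fits with 1 replicate left out, without replicate 1 or 3 of the lines (adjusted p of 0.0045 and 0.0058 by edgeR).

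**Figure D4:**
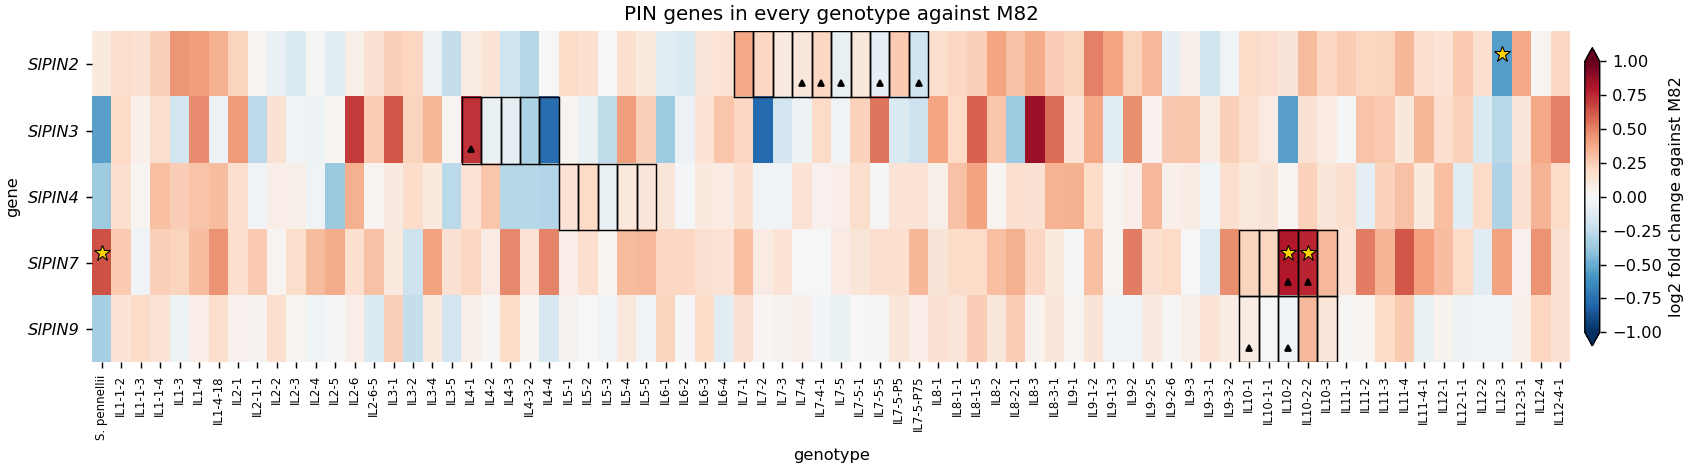
Log2 fold change against M82 (colour, from -1 in blue to 1 in red) of the 5 members read in every library, in S. pennellii and the 75 lines; boxes mark lines with the introgression on the gene's own chromosome, triangles lines with its S. pennellii copy and stars an adjusted p of 0.01 or less. Stars stand at SlPIN7 in S. pennellii, IL10-2 and IL10-2-2 and at SlPIN2 in IL12-3.

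Genotype means of SlPIN2 and SlPIN4 varied together. Over M82 and the lines with the introgression on neither gene's chromosome, Pearson's r of log2 CPM was 0.62 and Spearman's rho 0.55 (61 genotypes). Without IL12-3 the r was 0.57. Many other genes were closer to SlPIN2, among which SlPIN4 ranked 1457th of 14769 genes, with a median r of 0.05. SlPIN4 had an r of 0.41 with SlPIN9 (66 genotypes) and of 0.35 with SlPIN3 (66). The r of the other pairs ran from 0.12 to 0.28, except for SlPIN7, with -0.03 with SlPIN2 and -0.11 with SlPIN4. These are descriptions, since the points share sowings and sequencing pools, and relations were seen within genotypes too. Over 305 libraries the deviations from the genotype mean had an r of 0.55 between SlPIN4 and SlPIN9, 0.48 between SlPIN3 and SlPIN9 and 0.43 between SlPIN2 and SlPIN4.

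By the same measure the gene most like SlPIN2 was Solyc09g009040 (r of 0.87 over 57 genotypes). For SlPIN4 it was Solyc07g053970 (r of 0.82, 61 genotypes). SlPIN3, SlPIN7 and SlPIN9 had looser matches, with a highest r of 0.64, 0.52 and 0.64. The identifiers come without names in the files.

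**Figure D5:**
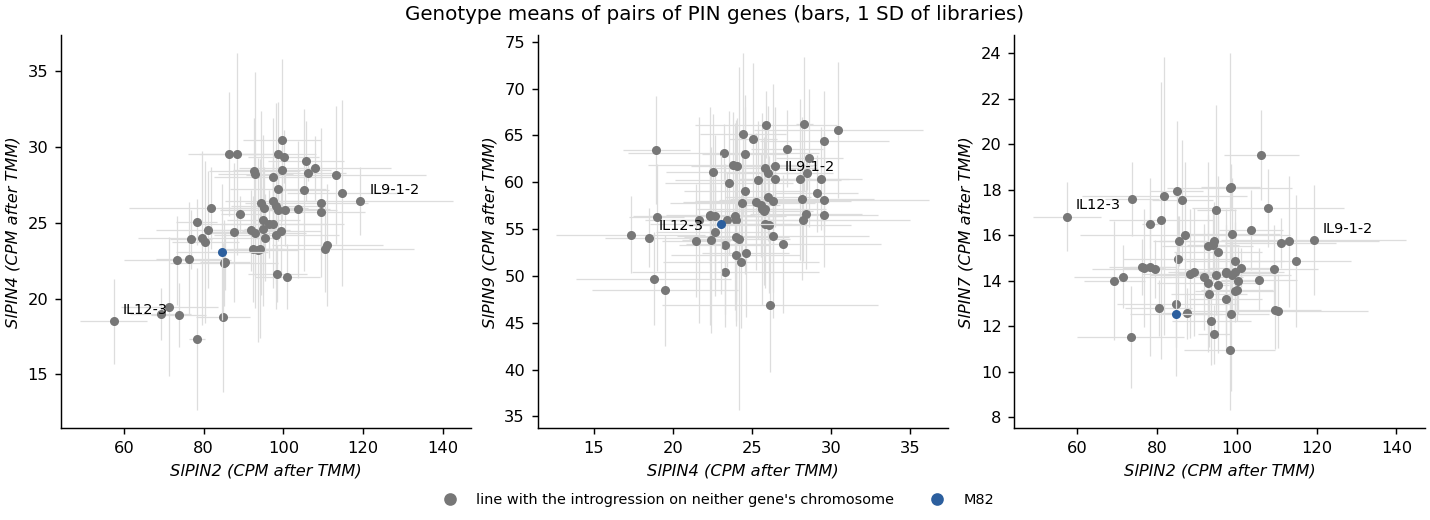
Genotype means in CPM after TMM (linear axes that do not start at 0) of SlPIN4 against SlPIN2, SlPIN9 against SlPIN4 and SlPIN7 against SlPIN2, over M82 (blue) and lines with the introgression on neither gene's chromosome (grey), with bars of 1 SD over libraries. SlPIN4 increases with SlPIN2 from IL12-3 at the low end, SlPIN9 does so more loosely with SlPIN4, and SlPIN7 shows no such slope.

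The AUX1/LAX proteins carry auxin into cells and act with the PINs in polar transport. Of the 5 SlLAX genes 1 was called in S. pennellii against M82, with the same 35.6% of all genes called. SlLAX1 averaged 170 ± 10.06 CPM in S. pennellii and 138 ± 9.69 CPM in M82, a log2 fold change of 0.30 with an adjusted p of 0.0020 by edgeR. The adjusted p of SlLAX3 and SlLAX4, at log2 fold changes of -0.40 and -0.94, were 0.015 and 0.019 by edgeR. Tested for all lines at once against M82, 4 of the 5 genes were called, against 70.4% of all genes. SlLAX4 was not called, with an adjusted p of 0.047 by edgeR. On the gene's own chromosome 2 of 30 combinations were called against M82, SlLAX1 in IL9-1-3 and IL9-2, against 6.00% of all genes. On other chromosomes 1 of 345 was called, SlLAX2 in IL4-3, against 1.07%.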

How the data were processed

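Root tips of 77 genotypes were sequenced in 305 libraries. The authors trimmed and filtered the reads, mapped them with BWA to coding sequences that held the S. pennellii version inside each introgression and the M82 version elsewhere, counted mapped reads per gene with SAMtools, and deposited the raw counts, which were used here. Versions of BWA and SAMtools: not given in the sources used here. A gene with its S. pennellii copy was thus read on another sequence than in M82. Tables of rounded, normalized values were not used, and neither were the authors' columns of fold changes, p-values and means. From that table only the cis label, the line and the gene were taken. The count table has 9 columns whose names match no sample given here, and these were left out.

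Genes with low counts were removed with filterByExpr, which left 19591 genes. Counts were scaled by TMM (factors from 0.818 to 1.17) and fitted with genotype as the only term over all libraries, in edgeR 4.0.16 under R 4.3.3. A quasi-likelihood F-test was run for each genotype against M82 and for all lines at once against M82. It also compared the mean of the lines with a member's S. pennellii copy with the mean of the lines on other chromosomes. The last test can miss a low gene where a line of the reference has no read. P-values were adjusted by the Benjamini-Hochberg method over all genes of a comparison, and the threshold was 0.01. The SE is the log2 fold change divided by the square root of F. The tests were also run on simulated data. DESeq2 1.42.0 was used for alternatives only, as was a Wald version of the quasi-likelihood test with lines as the reference.

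The replicate number marks a shared plating date and sequencing pool in the study's methods, so it pairs libraries. Pairs of libraries from different genotypes had a mean correlation of their deviations from the genotype mean of 0.13 where the number was shared and of -0.04 where it was not, over genes with a mean of at least 5 CPM. P-values measure the spread between these pooled samples within genotypes. Where lines were compared with a mean of other lines, the spread between lines is not part of the SE or p. Intervals on reads cover counting error only.

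All 9 members named are described, with every member and line combination called in the fit above. The other named combinations were picked after their values were seen, and likeness to other genes is by Pearson's r of genotype means of log2 CPM with a prior count of 2. The members and lists were chosen with earlier results of these data known. The files do not pair identifiers with names, and of the longer list of auxin transport genes only the 5 SlLAX genes, known by identifier, could be looked up. Sequences and gene lengths were not used here, and 1 further gene of the family is not reported here.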

Additional observations from a re-analysis of the deposited data

Results flagged for a closer look

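Among 31 groups of 4 libraries whose values are described, 2 held a library far from the others of its group, where chance gives about 1 in 20. SlPIN2 in IL7-4 had 69.4 CPM in replicate 3, against 95.6 to 101 CPM in its other libraries. SlPIN3 in IL8-3 had 25.88 CPM in replicate 3, against 18.9 to 19.9 CPM in its other libraries.

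The shift of SlPIN3 differed between genotypes that share its S. pennellii copy. IL4-1 was above S. pennellii by 1.265 on the log2 scale (SE 0.25, adjusted p of 7.8e-06 by edgeR's quasi-likelihood test), with 4 of 4 libraries of IL4-1 above all 3 of S. pennellii.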

How the results depend on the processing

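In the fit reported above, the count of called PIN genes was 2 in S. pennellii. The counts of called combinations were 2 with the introgression on the gene's own chromosome and 1 on another chromosome. The count was 6 for all lines at once against M82 (among lines) and 2 for lines with the S. pennellii copy. DESeq2 size factors, no filter on low counts and edgeR's exact test left each of these that they gave within 1.5 times. With the replicate number as a block the count on another chromosome was 4 (SlPIN3 in IL8-3 and SlPIN7 in IL4-4 and IL11-4 were added), SlPIN3 in lines with its S. pennellii copy and SlPIN9 among lines passed too, and the block changed no other call of a PIN gene. With each genotype fitted with M82 alone, the counts on the own and another chromosome were 0 and 0 by the quasi-likelihood test, and DESeq2 gave 1 in S. pennellii, 0 on the own chromosome and 1 on another. With the lines on other chromosomes in place of M82 as the reference, they were 4 and 17, where 10.23% and 2.90% of all genes were called. At a threshold of 0.05 they were 5 and 7, with 4 for lines with the S. pennellii copy. With every line on the gene's own chromosome taken, SlPIN3 turned to -0.24, a mean in which IL4-1 was 1.03 above the other 4 lines, and the cause was not tested.

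Leaving out 1 replicate gave between 1 and 2 calls in S. pennellii, between 0 and 2 on the own chromosome, and between 0 and 3 on another chromosome. Among lines it gave 4 to 7. For lines with the S. pennellii copy it gave 2 to 3, and without replicate 4 of the lines SlPIN10 had no test (log2 fold change -2.37). Over single log2 fold changes, 316 alternatives stayed on their side of the threshold, 26 passed where the value reported did not, 19 fell short and 1 reversed. SlPIN5 in S. pennellii was called in 14 of 14 alternatives, at 3.37 to 4.22. The alternatives reuse the S. pennellii libraries through which alone SlPIN5 passed the filter on low counts, so they are not independent of that choice. Reads limit SlPIN5, SlPIN6, SlPIN8 and SlPIN10, whose totals were 746, 354, 450 and 1111 over 305 libraries.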
